A study of Ovis aries with 16 samples.

Results

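Oxytocin (OXT) and the oxytocin receptor (OXTR) were followed across the hypothalami of 16 fetal sheep. The probes taken were the non-control ones whose gene name or description in the scanner files was OXT, OXTR or the alias OTR. This rule found 4 probes for 2 genes, 2 probes each, among the 15008 distinct probes of a single-colour Agilent ovine array. The receptor is listed in the files under OTR. One fetus was hybridised per array. There were 4 groups of 4 fetuses. The estradiol+BCO fetuses received estradiol at 250 µg per day for 5 days and then a 10 min occlusion of the brachiocephalic artery (BCO), the vessel that carries blood toward the head. The BCO fetuses had the same occlusion without the hormone. The estradiol fetuses received the hormone and a sham occlusion, and the control fetuses had the sham period and no hormone. All fetuses carried implanted catheters through which blood was drawn, were at 124 to 128 days of gestation (term 147 days), and had the hypothalamus collected 1 h after the occlusion or sham period began.

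Oxytocin is made as a precursor by large neurons of the paraventricular and supraoptic nuclei, which send axons to the posterior pituitary and release the hormone into blood, and by smaller neurons that project within the brain. The precursor also yields a neurophysin, the carrier protein of the hormone in its granules. The receptor is a G protein-coupled receptor that acts mainly through Gq and phospholipase C, and oxytocin neurons themselves carry it. In several mammals estrogen is known to raise oxytocin receptor levels in brain and uterus.

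The sequences below are the 3′ ends of the 4 probes, and they show why both OXT probes serve as a single measurement while the 2 OXTR probes are separate ones. Each probe has 60 bases, of which the last 30 are given 5′ to 3′ as the array files list them. Capitals mark the polyadenylation hexamer AATAAA where it occurs in these 30 bases.
OXT A_70_P039697: ggaattatgacaatgaAATAAAgccttttt
OXT A_70_P039696: gaattatgacaatgaAATAAAgcctttttt
OXTR A_70_P051381: tatgctaatacttcagaagcatttgggaaa
OXTR A_70_P051382: gaccaggtgggtacggaagcctagtgttct
The OXT probes share 59 of their 60 bases and begin at transcript bases 441 and 442, so their signals are repeat readings of 1 target and are not independent. The OXTR probes share 0 bases and begin at bases 2073 and 1849. A_70_P051381 was printed in 5 spots and the other 3 probes in 1 spot each. The GC content was 41.7% and 40.0% for the OXT probes and 36.7% and 45% for the OXTR probes, in the order listed. In the RefSeq gene table OXT lies between AVP, the vasopressin gene, and MRPS26, and OXTR lies between RAD18 and CAV3. AVP was not analysed here. The array files give no genome coordinates for these probes.

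Levels are log2 of the processed signal minus the array's own 75th percentile, so that 0 is the 75th percentile of signal on that array and a step of 1 is a doubling. The 75th percentile ran from 2024 to 2908 signal units over the 16 arrays, and between 77.25% and 86.39% of probes were well above background. Replicates 1 and 2 of each group were on slide 1 and replicates 3 and 4 on slide 2, so that each slide held every group. Slide differences passed an adjusted p of 0.05 for 856 of 12934 tested probes, of which 754 were higher on slide 2. The members were not among them, with differences of slide 2 minus slide 1 of -0.53 and -0.49 for the OXT probes and -0.17 and 0.27 for the OXTR probes (limma adjusted p from 0.709 to 0.826).

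OXT was well above background on all 16 arrays, had its highest mean in estradiol+BCO fetuses, and had its lowest mean and widest range in BCO fetuses. The probe A_70_P039697 stood at 2.78, 2.34, 3.07 and 3.49 in estradiol+BCO replicates 1 to 4. In the BCO fetuses it stood at 1.42, -2.49, -1.23 and -3.37. Every estradiol+BCO array was therefore above every BCO array, and BCO replicate 1 stood above the other 3 of its group. The estradiol fetuses had 0.55, 1.27, 1.61 and 1.70, and the control fetuses had 1.84, 2.57, 1.88 and -1.12. Estradiol and control arrays overlapped, and control replicate 4 alone lay below 0 in these 2 groups.

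The group means of OXT were 2.92 ± 0.48 in estradiol+BCO, -1.41 ± 2.09 in BCO, 1.28 ± 0.52 in estradiol and 1.29 ± 1.65 in control fetuses (SD, n = 4 each). In the order of levels, estradiol+BCO came first, then control and estradiol, which did not differ beyond their spread, and then BCO. Before scaling, the highest array held 26100 signal units (estradiol+BCO replicate 4) and the lowest 225 units (BCO replicate 4). The highest and lowest scaled level lay 2.22-fold apart in estradiol+BCO, 27.7-fold in BCO, 2.22-fold in estradiol and 13-fold in control fetuses. Both groups given estradiol thus had the narrower ranges. A test of the spread itself was not made.

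**Figure D1:**
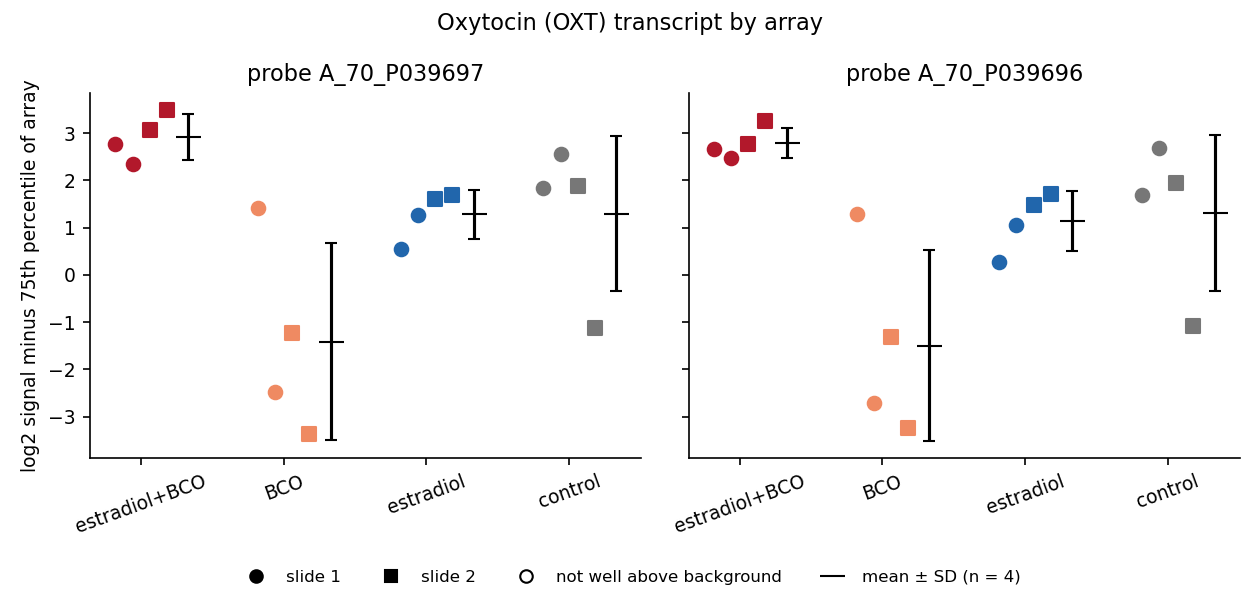
OXT level (y axis, log2 signal minus the array's 75th percentile) in each fetus by group, for both probes. Points are single arrays, shaped by slide, and bars give the group mean and SD (n = 4). The estradiol+BCO arrays of A_70_P039697 sit between 2.34 and 3.49, above every BCO and every estradiol array, while BCO arrays run from -3.37 to 1.42.

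The second probe, A_70_P039696, gave 2.67, 2.48, 2.77 and 3.25 in estradiol+BCO fetuses, against 1.28, -2.71, -1.31 and -3.24 after BCO alone. It gave 0.28, 1.06, 1.48 and 1.72 in estradiol and 1.70, 2.68, 1.95 and -1.08 in control fetuses. The same fetuses were high and low with both probes, and the Pearson r between them over 16 arrays was 1.0 (Spearman rho 0.99). The spread between the probes was thus far smaller than the spread between fetuses. The pooled within-group SD of OXT was 1.38 and 1.35 for the 2 probes, at the 98.7 percentile of all tested probes, whose median was 0.25.

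OXTR gave a faint signal, between 9.55 and 50.1 units with the 5-spot probe and between 5.52 and 47.7 units with the other. With A_70_P051381 the estradiol+BCO fetuses stood at -7.23, -5.97, -7.06 and -7.31, and the BCO fetuses at -6.27, -6.15, -5.94 and -7.93. The estradiol fetuses stood at -5.52, -6.41, -5.70 and -6.41, and the control fetuses at -6.00, -7.32, -6.12 and -5.81. All 4 groups overlapped one another. The probe was well above background on 3 of 4 arrays in estradiol+BCO, BCO and control fetuses and on 4 of 4 in estradiol fetuses.

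The means of this OXTR probe were -6.89 ± 0.62 in estradiol+BCO, -6.57 ± 0.91 in BCO, -6.01 ± 0.47 in estradiol and -6.31 ± 0.69 in control fetuses (SD, n = 4 each). From high to low the order was estradiol, control, BCO and estradiol+BCO, and no neighbours in it differed beyond their spread. The SD among the spots of this probe on 1 array ran from 0.04 (estradiol replicate 3) to 0.59 (control replicate 2), the largest being close to the SD between fetuses.

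The dimmer OXTR probe A_70_P051382 stood at -7.71, -5.96, -7.87 and -6.59 in estradiol+BCO fetuses, against -8.00, -6.85, -6.33 and -8.72 after BCO alone. It stood at -6.07, -6.07, -5.58 and -6.39 in estradiol and at -8.37, -7.14, -6.40 and -6.10 in control fetuses. It was well above background on 2, 1, 4 and 2 arrays of these groups in that order, and only the estradiol fetuses had it measured in every array. Its means were -7.03 ± 0.91, -7.48 ± 1.09, -6.03 ± 0.33 and -7.00 ± 1.01 for estradiol+BCO, BCO, estradiol and control fetuses (SD, n = 4 each). Estradiol fetuses were highest with both probes, and the lowest group differed between them. Over the 16 arrays the 2 OXTR probes had a Pearson r of 0.62 (permutation p = 0.0158, 0.0474 adjusted over 6 relations) and a Spearman rho of 0.66 (permutation p = 0.00634, 0.019 adjusted).

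**Figure D2:**
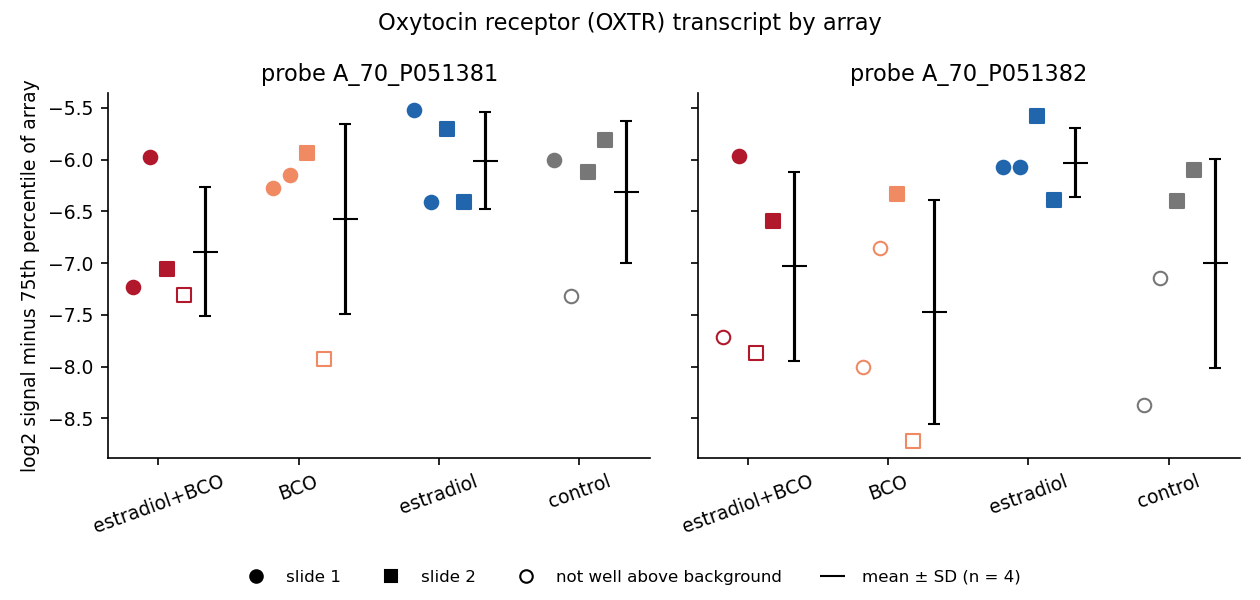
OXTR level (y axis, log2 signal minus the array's 75th percentile) in each fetus by group for both probes, with open points where the probe was not well above background and bars for the mean and SD (n = 4). The groups overlap throughout, and the estradiol arrays of A_70_P051382 lie between -6.39 and -5.58.

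The first question was what BCO did in fetuses without the hormone. OXT averaged -1.41 in BCO and 1.29 in control fetuses, a log2 difference of -2.71 ± 0.90 (SE, 95% interval -4.63 to -0.79), or 6.53-fold lower. It did not pass the test across all probes (limma adjusted p = 0.507, unadjusted p = 0.00906), and the groups overlapped (exact permutation p = 0.0571, two-sided, where 4 against 4 allows no p below 0.0286). Here 0 of 12934 probes passed an adjusted p of 0.05 with limma (percent called 0), while 923 had an unadjusted p under 0.05, 7.14% of probes, with 3.56% of all probes in the lower direction. In bulk tissue, fewer cells of a type and less RNA per cell cannot be told apart.

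This OXT difference was -2.74 within slide 1 and -2.68 within slide 2, so both slides gave nearly the same value. It was also carried unevenly, since BCO replicate 1 lay inside the range of the controls and control replicate 4 lay inside that of the BCO fetuses. Leaving out each array in turn gave -3.65 to -2.06. For OXTR the same comparison gave -0.26 ± 0.45 (SE, 95% interval -1.23 to 0.71, limma adjusted p = 0.987) with the 5-spot probe and -0.47 ± 0.58 with the other. It was 0.45 within slide 1 and -0.97 within slide 2 for the 5-spot probe, so its direction was not settled.

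The second question was what BCO did after estradiol. OXT averaged 2.92 in estradiol+BCO and 1.28 in estradiol fetuses, a difference of 1.64 ± 0.90 (SE, 95% interval -0.28 to 3.56) or 3.11-fold, and 1.65 ± 0.88 with the second probe. All 4 estradiol+BCO arrays were above all 4 estradiol arrays with both probes, an ordering seen in 2.16% of tested probes. The exact permutation p was 0.0286, the smallest possible here, and 0.143 after adjustment over the 20 such tests made on the members. Across all probes the limma adjusted p was 0.7, and 1 of 12934 probes passed (0.00773%), which was not a member, with 1002 at an unadjusted p under 0.05 (7.75%). The difference was 1.65 within slide 1 and 1.63 within slide 2.

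In the same comparison OXTR was lower with both probes, by -0.88 ± 0.45 (SE, 95% interval -1.85 to 0.09, limma adjusted p = 0.674) and -1.0 ± 0.58 on the log2 scale. The groups overlapped (exact permutation p = 0.0857 and 0.114). With normexp background correction the difference shrank to -0.43 for each probe. Within slides the 5-spot probe differed by -0.63 and -1.13. This was the OXTR comparison with the lowest p of that probe, and it did not pass.

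Estradiol alone, set against control, left OXT at nearly the same mean, with a difference of -0.01 ± 0.90 (SE, 95% interval -1.93 to 1.91, limma adjusted p = 1). The interval spans almost 4 log2 units and does not show that the levels were alike. The difference was -1.30 within slide 1 and 1.28 within slide 2, opposite in sign, and control replicate 4 is on slide 2. OXTR differed by 0.30 ± 0.45 (95% interval -0.67 to 1.27) with the 5-spot probe and by 0.97 ± 0.58 (-0.27 to 2.22, exact permutation p = 0.0571) with the other, and neither passed (limma adjusted p = 1 for both). The percent called over all probes was 0, with 426 probes at an unadjusted p under 0.05 (3.29%).

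Among occluded fetuses, estradiol+BCO against BCO gave the greatest OXT difference of the 5 pairwise comparisons. It was 4.34 ± 0.90 (SE, 95% interval 2.42 to 6.26), or 20.2-fold, and 4.29 ± 0.88 with the second probe. No estradiol+BCO array overlapped a BCO array, an ordering seen in 1.67% of probes, and the exact permutation p was 0.0286 (0.143 after adjustment over the 20 tests). Across all probes OXT ranked 21 and 20 of 12934 by p with its 2 probes, and the limma adjusted p was 0.153 for both, so neither probe passed. The percent called was 0, with 1223 probes at an unadjusted p under 0.05 (9.46%), of which those higher were 3.66% of all probes.

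The value rested on both slides, at 3.09 within slide 1 and 5.58 within slide 2. Leaving out BCO replicate 1, the BCO fetus with high OXT, gave 5.28 with an adjusted p of 0.0221 by limma. The other 15 of 16 omissions did not pass, with limma adjusted p-values up to 0.348. BCO replicate 1 stood nearest the estradiol+BCO arrays, so leaving it out had to widen the difference. Nothing rests on that pass. OXTR in this comparison differed by -0.32 ± 0.45 (95% interval -1.29 to 0.65) and 0.45 ± 0.58 (-0.80 to 1.69) with the 2 probes, opposite in sign, with limma adjusted p of 0.866 and 0.853.

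Against control, estradiol+BCO fetuses had OXT higher by 1.63 ± 0.90 (SE, 95% interval -0.29 to 3.55, limma adjusted p = 0.842, exact permutation p = 0.0571). Slide 1 alone gave 0.35 and slide 2 alone 2.90, the slide where the low control replicate 4 lay. OXTR differed by -0.58 ± 0.45 and -0.03 ± 0.58 (limma adjusted p = 0.892 and 0.995). Over all probes the percent called was 0, and 750 had an unadjusted p under 0.05 (5.8%).

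The effect of BCO on OXT with estradiol minus that without it, the interaction, was 4.35 ± 1.27 (SE, 95% interval 1.63 to 7.06) with A_70_P039697 and 4.46 ± 1.25 with A_70_P039696. It was 4.39 within slide 1 and 4.30 within slide 2. It did not pass across all probes (limma adjusted p = 0.396 and 0.36, unadjusted p = 0.00401 and 0.00295). There 1 probe passed (0.00773%), not a member, and 931 had an unadjusted p under 0.05 (7.2%), of which those higher were 2.61% of all probes. For OXTR the interaction was -0.62 ± 0.64 (95% interval -1.99 to 0.75) and -0.53 ± 0.82 (limma adjusted p = 0.918 and 0.957). The 5 pairwise comparisons and the interaction share arrays, so their values are set side by side and are not independent of one another.

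**Figure D3:**
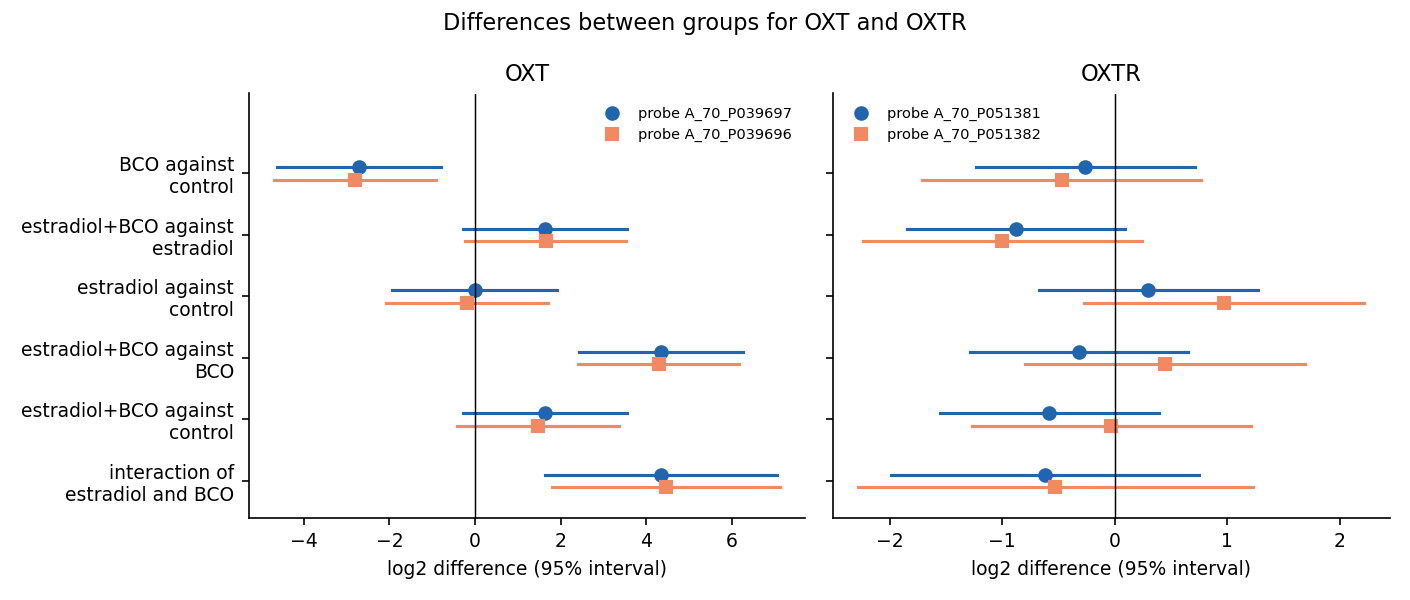
Log2 differences of the members in the 6 comparisons (points) with 95% intervals (lines), all from the limma fit over 16 arrays. The OXT interval lies apart from 0 for BCO against control, estradiol+BCO against BCO and the interaction, before any adjustment, while every OXTR interval includes 0.

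OXT and OXTR were not clearly related across the fetuses. With the brighter probe of each the Pearson r over 16 arrays was -0.08 (permutation p = 0.782) and Spearman's rho was -0.36 (permutation p = 0.177, 0.266 adjusted over 6 relations). The other 3 probe pairs gave r of 0.09, -0.09 and 0.10. The r was -0.45 within slide 1 and 0.09 within slide 2 (8 arrays each, permutation p = 0.209 and 0.807). Leaving out the 2 arrays farthest from the OXT median, BCO replicates 4 and 2, gave r = -0.70 (permutation p = 0.0015) and rho = -0.74 (permutation p = 0.00376). The pooled value thus depends on those 2 arrays. They were picked by their OXT values and both came from the BCO group, so these unadjusted p-values do not hold as a test. Only the faint 5-spot OXTR probe was read in this way, and no relation is drawn from it. In BCO replicate 4 both genes had their lowest level of all arrays, -3.37 for OXT and -7.93 for OXTR with the 5-spot probe.

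Of the 16 genes listed for oxytocin synthesis and release, 2 were tested, OXT and CPE, the carboxypeptidase that trims peptide precursors. CPE had its lowest p in estradiol+BCO against estradiol, at -0.26 ± 0.11 (SE, limma adjusted p = 0.61), where OXT was higher, and its interaction was -0.33 ± 0.16 (limma adjusted p = 0.72). Among 15 transcription factors listed for oxytocin neurons 6 were tested. Bulk tissue does not show which cells their transcripts came from. The estrogen receptor ESR1 averaged -1.72 ± 0.81 in BCO and -0.18 ± 0.38 in control fetuses (SD, n = 4 each), a difference of -1.53 ± 0.41 (limma adjusted p = 0.458, -1.92 and -1.14 within slides). ESR2, the other estrogen receptor, differed by -0.66 ± 0.32 in that comparison (limma adjusted p = 0.706). The thyroid hormone receptor THRB differed by -0.42 ± 0.17 in estradiol+BCO against BCO and the glucocorticoid receptor NR3C1 by -0.35 ± 0.20 in estradiol+BCO against control (limma adjusted p = 0.453 and 0.854). None of the 6 passed in any comparison. In BCO against control 1 of them, ESR1, had an unadjusted p under 0.05, beside 7.14% of all probes.

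Of 36 receptors on or acting at oxytocin neurons 15 were matched by name and tested, OXTR among them, and 0 passed in any comparison with limma. In estradiol+BCO against BCO 4 were higher and 11 lower, with a median log2 difference of -0.13 beside -0.02 over all probes, and 2 of the lower ones had an unadjusted p under 0.05, beside 5.8% of all probes lower. These were GRIN1, the obligatory NMDA receptor subunit, at -0.72 ± 0.20 (limma adjusted p = 0.275), and GRIA4, an AMPA receptor subunit, which was also -0.43 ± 0.13 in estradiol+BCO against estradiol (limma adjusted p = 0.431). The orexin receptor HCRTR1 had its lowest p in estradiol against control, at -0.90 ± 0.22 (limma adjusted p = 1, -0.96 and -0.84 within slides). OPRK1, the kappa opioid receptor, differed by -0.33 ± 0.15 in BCO against control (limma adjusted p = 0.678). The listed serotonin receptor HTR2A is named 5HT2A in the files, so name matching left it out of these counts. It differed by -0.3 ± 0.39 in estradiol+BCO against BCO (limma adjusted p = 0.852).

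Downstream of the receptor, 10 of 37 signalling genes were tested and 0 passed in any comparison with limma. FOS, the immediate early transcription factor used as a marker of neuronal activation, averaged 0.97 ± 0.53 in estradiol+BCO fetuses, against -0.12 ± 0.32 after BCO alone (SD, n = 4 each). This difference of 1.1 ± 0.32 (SE, limma adjusted p = 0.3) was 1.12 within slide 1 and 1.07 within slide 2. It was smaller with the dimmer FOS probes, at 0.81, 0.71 and 0.90. With its brightest probe FOS differed by -0.02 ± 0.32 in BCO against control and by 0.59 ± 0.32 in estradiol+BCO against estradiol. It differed by 1.08 ± 0.32 in estradiol+BCO against control. The endothelial nitric oxide synthase NOS3 differed by 0.34 ± 0.15 in estradiol+BCO against estradiol (limma adjusted p = 0.616). The prostaglandin synthase PTGS2 differed by 1.12 ± 0.59 in estradiol against control (limma adjusted p = 1), and the growth factor receptor EGFR by 0.30 ± 0.18 in BCO against control (limma adjusted p = 0.793).

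Other hypothalamic peptide genes were set beside OXT, and 14 of 28 were tested. In BCO against control 2 were higher and 12 lower, with a median of -1.44 beside 0.01 over all probes. None passed the adjusted test with limma, and 9 of 14 had an unadjusted p under 0.05 in the lower direction, beside 3.56% of all probes. Galanin (GAL) differed by -2.82 ± 0.56 (SE), AGRP, the orexigenic peptide of the arcuate nucleus, by -4.80 ± 1.23 and gastrin-releasing peptide (GRP) by -1.18 ± 0.31 (limma adjusted p = 0.458 for each). GHRH, which drives growth hormone release, was not measured well above background in the 4 BCO fetuses, where its mean was -8.36, and averaged -2.23 ± 1.36 in control fetuses. It was at least 33-fold lower in BCO fetuses, taking the faintest well-measured signal of each BCO array as the limit (limma adjusted p = 0.458). These peptides were part of earlier results of the same arrays, so their count is not independent evidence.

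In estradiol+BCO against BCO 12 of the 14 peptides were higher and 2 lower, with a median of 0.81 beside -0.02 over all probes. Of these 5 had an unadjusted p under 0.05, namely GHRH, SST, GAL, GRP and NPVF, beside 3.66% of all probes higher. GAL differed by 2.14 ± 0.56 (limma adjusted p = 0.259) and OXT by 4.34. In estradiol+BCO against estradiol, where every OXT array was higher, 5 of the 14 peptides were higher and 9 lower with a median of -0.11. Against control the estradiol+BCO fetuses had 2 of the 14 higher and 12 lower, with a median of -0.52, whereas OXT was 1.63 higher.

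The tissue label was checked against 10 genes of hypothalamic nuclei, of which 7 were tested. GHRH, AGRP, POMC, GNRH1 and PMCH, 5 of these 7, are also among the 14 peptides above, so the 2 lists are not separate measurements. In all 16 arrays POMC, AGRP, ISL1 and PMCH were well above background. GNRH1 was well above background on 2 of 4 BCO arrays and on all 4 of each other group. GHRH and NR5A1, a gene of the ventromedial nucleus, were not well above background on any of the 4 BCO arrays. In estradiol+BCO fetuses GHRH was well above background on 3 of 4 arrays and NR5A1 on 2 of 4. NR5A1 was well above background on only 2 of 4 control arrays and 3 of 4 estradiol arrays. The mean level of these 7 genes was -3.35, -2.51, -5.24 and -4.77 in estradiol+BCO replicates 1 to 4. In BCO replicates it was -5.31, -5.10, -4.98 and -6.25, below every control. It was -2.54, -1.72, -3.59 and -4.81 in estradiol and -3.29, -3.06, -2.48 and -2.61 in control replicates.

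OXT and these tissue markers were thus both lower in the BCO group. BCO replicate 4 had the lowest OXT (-3.37) and the lowest marker mean (-6.25) of all 16 arrays, and BCO replicates 2 and 3 were low in both. Other arrays differed between the measures. BCO replicate 1 had OXT at 1.42 with markers at -5.31, and control replicate 4 had OXT at -1.12 with markers at -2.61. Estradiol+BCO replicates 3 and 4 had the highest OXT of all arrays, 3.07 and 3.49, with markers at -5.24 and -4.77. In BCO against control 6 of the 7 markers were lower, 5 with an unadjusted p under 0.05 beside 3.56% of all probes lower, with a median of -2.19 beside 0.01 over all probes. In estradiol+BCO against BCO 6 of 7 were higher, with a median of 1.56 beside -0.02 over all probes. The part of tissue composition in the OXT differences was not tested.

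Of 12 pituitary genes 6 were tested, and their mean level ran from -5.30 to -4.42 in estradiol+BCO, -5.98 to -4.11 in BCO, -4.26 to -2.73 in estradiol and -5.17 to -2.07 in control fetuses. In BCO against control 6 of 6 were lower, with a median of -0.99 beside 0.01 over all probes, of which 51.6% were higher. Only 1 (PRL) had an unadjusted p under 0.05, beside 3.56% of all probes lower. The members moved unequally. LHB averaged 2.05 in BCO and 2.16 in control fetuses, GHRHR -6.28 and -6.24, and CGA -5.16 and -2.08. FSHB was well above background on only 2 of 4 arrays in each of these groups. The highest value, -2.07, was control replicate 4, the control with the lowest OXT. In that array PRL stood at 1.13, against -3.80 to -3.46 in the other controls. The part of these genes in the result was not tested.

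Markers of other cell types were also read beside OXT. The mean of the astrocyte list, 4 of 8 tested, lay between -0.22 and 0.30 over all arrays, but its members went different ways. AQP4, the astrocyte water channel, averaged 5.72 ± 0.29 in estradiol+BCO, 5.15 ± 0.26 in BCO, 5.76 ± 0.12 in estradiol and 5.52 ± 0.24 in control fetuses (SD, n = 4 each). It differed in the same direction as OXT in estradiol+BCO against BCO (0.56 ± 0.16, limma adjusted p = 0.291) and in BCO against control (-0.37 ± 0.16, limma adjusted p = 0.668). In estradiol+BCO against BCO it was the only 1 of the 4 that was higher, and 3 were lower, with a list median of -0.24. FGFR3, 1 of those lower, had an unadjusted p under 0.05, beside 5.8% of all probes lower. In BCO against control 2 of the 4 were higher and 2 lower. Of the fibroblast and meninges list 4 of 6 were tested, and in estradiol+BCO against estradiol 4 of 4 were lower with a median of -0.47. There 2 had an unadjusted p under 0.05, beside 4.38% of all probes lower, the collagens COL1A2 (-0.86 ± 0.26, limma adjusted p = 0.413) and COL3A1 (-0.53 ± 0.24, limma adjusted p = 0.623). TTR, transthyretin of the choroid plexus, ran from -2.51 to 1.08 in estradiol+BCO, -1.72 to 3.85 in BCO, -1.09 to 2.07 in estradiol and 0.56 to 3.69 in control fetuses. Of the endothelium and mural cell list 2 of 8 were tested. In estradiol+BCO against BCO 2 of 2 were lower (median -0.25), and in BCO against control 2 of 2 were higher (median 0.11). KDR had an unadjusted limma p under 0.05 in estradiol+BCO against BCO, beside 5.8% of all probes lower. The same held in estradiol+BCO against estradiol, beside 4.38%. The microglia and leukocyte genes tested and NEUROD1 had none under 0.05. The part of these cell types in the OXT differences was not tested.

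**Figure D4:**
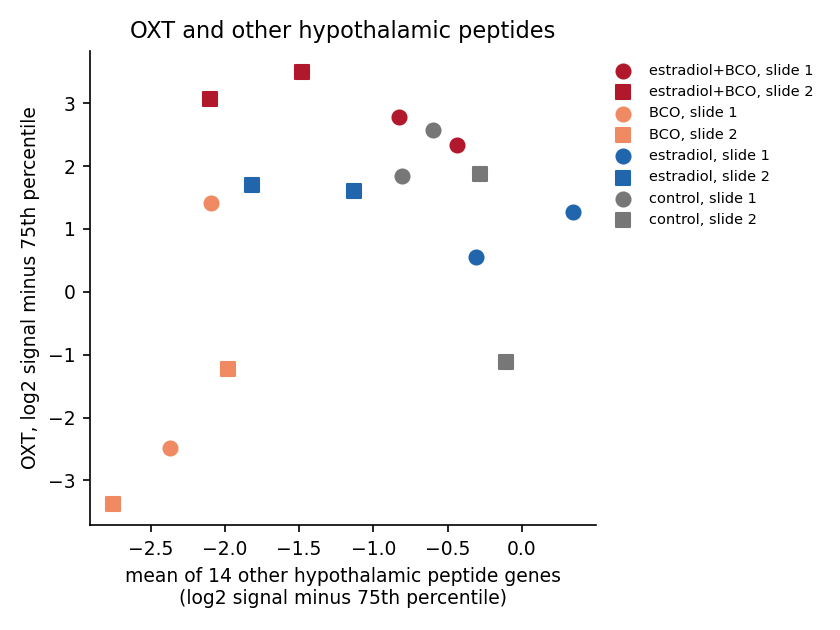
OXT level (y axis) against the mean level of 14 other hypothalamic peptide genes (x axis), both log2 signal minus the array's 75th percentile, 1 point per fetus, coloured by group and shaped by slide. BCO arrays lie between -2.75 and -1.98 for the peptides, and estradiol+BCO replicates 3 and 4 combine high OXT (3.07 and 3.49) with low peptides (-2.10 and -1.48).

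Among 847 named genes, the pattern most like OXT over the 16 arrays was that of AREG, amphiregulin, a ligand of the EGF receptor, with Pearson r = 0.87 and Spearman rho = 0.88, against a median r of -0.06 over all genes. Its r was 0.66 after removal of the group means and 0.82 and 0.91 within slides. AREG stood at -1.99, -2.27, -2.53 and -1.49 in estradiol+BCO fetuses, against -3.27, -3.49, -3.65 and -4.62 after BCO alone. It stood at -2.79, -2.43, -3.29 and -3.10 in estradiol and at -2.64, -1.97, -2.60 and -3.38 in control fetuses. All estradiol+BCO arrays were above all BCO arrays, an ordering seen in 1.67% of tested probes, and BCO replicate 4 was lowest for both genes. AREG differed by 1.69 ± 0.33 in estradiol+BCO against BCO (SE, limma adjusted p = 0.153), by -1.11 ± 0.33 in BCO against control (adjusted p = 0.49) and by 0.84 ± 0.33 in estradiol+BCO against estradiol (adjusted p = 0.597). AREG was picked for following OXT over these same arrays, so that it differs in the same direction supports nothing about OXT.

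Next came CCND3, a cyclin, with r = 0.69, cyclophilin B (CYCLOPHILIN B in the files), a peptidyl-prolyl isomerase, with 0.68, PGD, an enzyme of the pentose phosphate pathway, with 0.67, and SLC12A4, a potassium chloride cotransporter, with 0.65. PGD had a Spearman rho of only 0.35. After removal of group means these 4 had r of 0.30, 0.30, 0.61 and 0.47. Under quantile normalization, normexp background correction and either slide alone, the r of CCND3 ran from 0.47 to 0.86, that of CYCLOPHILIN B from 0.47 to 0.70, that of PGD from 0.45 to 0.78 and that of SLC12A4 from 0.42 to 0.84. All points share arrays, scaling and slide, and these r are descriptions of 16 arrays.

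**Figure D5:**
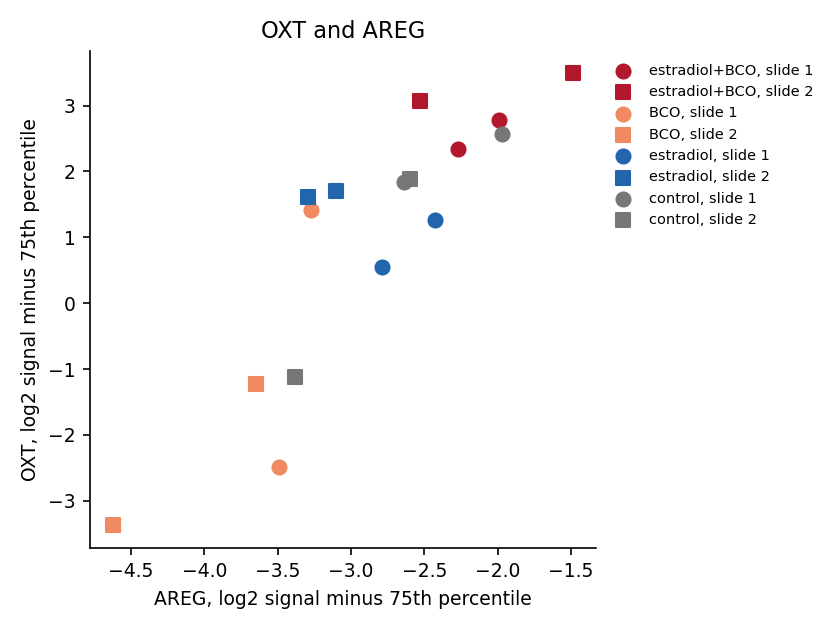
OXT level (y axis) against AREG level (x axis), both log2 signal minus the array's 75th percentile, 1 point per fetus, coloured by group and shaped by slide. The points run together with r = 0.87, with estradiol+BCO arrays at the upper right and BCO replicate 4 at the lower left.

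The patterns most like OXTR, among the same 847 genes with a median r of 0, were those of MET, the hepatocyte growth factor receptor (r = 0.83), 5HT2A, a serotonin receptor (0.79), ABCG2, an efflux transporter (0.75), PGFS, prostaglandin F synthase (0.74), and CPE (0.71). Under the same 4 alternatives the r of MET ran from 0.45 to 0.87, that of 5HT2A from 0.68 to 0.87, that of ABCG2 from 0.38 to 0.94, that of PGFS from 0.48 to 0.94 and that of CPE from 0.53 to 0.74. These alternatives were chosen after seeing the data.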

How the data were processed

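The deposited scanner files hold the intensity of each spot in arbitrary units, as processed by the authors, per the file headers, under protocol GE1-v5_10_Apr08 of Feature Extraction 10.1.1.1 for array design 019921. The deposited value table holds log2 values, found to be log2 of that signal minus the array's median within 5e-09. Depth does not apply, and the number of arrays limits precision. Here, control and outlier-flagged spots were removed, log2 signal was scaled to the array's 75th percentile, and spots of a probe were averaged. The 12934 probes well above background (over 0.5 of a probe's spots) on at least 4 of 16 arrays were tested in limma 3.58.1 (R 4.3.3), with 4 group means, empirical Bayes moderation and Benjamini-Hochberg adjustment over all tested probes. Single probes had exact permutation tests between 2 groups, made in R. Correlations had permutation tests in SciPy 1.17.1, exact for 8 arrays and with 100000 resamples for 14 or 16 arrays. The 16 arrays are 16 fetuses per the labels.

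Members and lists were chosen with earlier results of these data known. Named genes were every member probe, at most 4 genes of each list with the lowest unadjusted p, and the 5 genes most like each member by Pearson r. A gene was measured by its brightest probe, and other genes named within lists or markers were chosen after their values were seen. Names came from RefSeq (ARS-UI_Ramb_v3.0), by accession for 688 probes, symbol for 497, gene ID for 125 and synonym for 20, while 210 kept the file's name and 13415 stayed unnamed. Simulated data for estradiol+BCO against BCO (12934 probes) had 200 probes drawn at random and shifted. Of these, 67.5% were recovered at a log2 shift of 1 and 91.5% at 2, with 6 and 15 false calls. The median within-group SD of all tested probes was 0.25. It was larger for OXT (1.38 and 1.35) and OXTR (0.69 and 0.89), so these shares do not apply to the members. Alternatives are given in the closing part.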

Additional observations from a re-analysis of the deposited data

Results flagged for a closer look

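Of 120 sets of 4 arrays examined, 8 had 1 array standing far from the other 3, and chance alone sets apart about 1 in 20 such groups. OXTR (A_70_P051381) was -7.93 in BCO replicate 4, against -6.27 to -5.94 in the other BCO arrays. The rest were named genes. 5HT2A was -3.47 in estradiol+BCO replicate 2 and EGFR was -3.90 in estradiol+BCO replicate 4. NOS3 was -2.61 and OPRK1 -3.37 in BCO replicate 1. ESR2 was -5.96 in estradiol replicate 1 and -5.47 in control replicate 2, and PGD was 3.83 in control replicate 2.

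For 6 of 30 probes examined, every estradiol+BCO array lay on one side of the estradiol mean and every BCO array on the opposite side of the control mean. The difference between the effects, on the log2 scale in limma, was 4.46 for OXT (A_70_P039696, adjusted p = 0.36), 1.95 for AREG (adjusted p = 0.249), 1.51 for GRP (adjusted p = 0.383), 0.42 for OPRK1 (adjusted p = 0.725), 0.30 for SLC12A4 (adjusted p = 0.73) and -0.88 for GRIN1 (adjusted p = 0.482). None of the 6 passed across all probes. For OXT, meeting this rule turns on the choice of probe, since with A_70_P039697 BCO replicate 1 (1.42) lay above the control mean (1.29). Apart from the members, the 30 probes were picked from these data by lowest p or highest r with a member. The share of all tested probes that meet the rule was not computed, so the count of 6 cannot be read as unusual.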

How the results depend on the processing

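Direction and call were unchanged for OXT in BCO against control, in estradiol+BCO against both estradiol and control, and in the interaction under the alternatives listed here (quantile normalization, median centring, normexp, other filters and moderation, a block for slide, either slide on its own, the replicate block, fits of only the groups compared (not for the interaction), the value table, and each array left out). Leaving out 1 array gave -3.65 to -2.06, 1.39 to 1.83, 0.82 to 2.05 and 3.69 to 5.29 for these 4. Estradiol+BCO against BCO ran from 3.68 to 5.28 and passed only without BCO replicate 1 (5.28, limma adjusted p = 0.0221). That array had the highest OXT of its group, so its omission had to widen the difference and nothing rests on the pass. Estradiol against control ran from -0.82 to 0.42 (dimmer probe -0.97 to 0.28) and turned to 1.28 (1.16) within slide 2. For OXTR the 6 comparisons ran from -0.60 to 0.19, -1.19 to -0.72, -0.04 to 0.47, -0.77 to -0.11, -0.92 to -0.41 and -1.07 to -0.28, in the order in which the report gives them. OXTR turned to 0.45 (BCO against control) and 0.06 (estradiol+BCO against control) within slide 1 and to -0.09 (estradiol against control) within slide 2. Its dimmer probe turned to 0.33 and 0.92 within slide 1 for the first 2 of these, to 0.02 under quantile normalization in estradiol+BCO against control (-0.48 to 0.27 with 1 array left out) and to 0.03 for the interaction within slide 2. NR3C1 turned to 0.15 within slide 2. The r of OXT and OXTR was 0.0 with normexp, 0.09 and 0.10 with the dimmer OXTR probe, 0.09 within slide 2 and -0.70 without the 2 arrays farthest from the OXT median. The cause of these turns was not tested. A filter requiring all 16 arrays left no OXTR value.

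Counts of probes passing were 14 (slide 2) and 3 (only these groups fitted) for BCO against control, 12 (slide 2) for estradiol+BCO against BCO, 3 (slide 2) for estradiol+BCO against control and 1 (slide 2) for estradiol against control. Those for estradiol+BCO against estradiol were 0 with median centring, the value table, either slide alone, only these groups fitted and the replicate block. The interaction had 0 with quantile normalization, median centring, no filter, the value table or either slide alone, and 3 with the slide block or the replicate block. Without 1 array the counts ran from 0 to 6, 0 to 1, 0 to 0, 0 to 5, 0 to 0 and 0 to 3 in the same order of comparisons. No pairing by replicate number was seen in the signals (r of deviations -0.03 to 0.27, and 3 of 16 arrays best with their own number). Arrays of the same slide with different numbers gave -0.03 to 0.34. Such r cannot show how the animals were matched, and the labels do not say. With the replicate block OXT stayed at 4.34 in estradiol+BCO against BCO (adjusted p = 0.192) and 4.35 for the interaction (adjusted p = 0.372), and no member's call changed. A joint omission of a high BCO and a low control array was tried after their OXT values were seen. OXT then passed in BCO against control, in estradiol+BCO against BCO and in the interaction. No value is given and nothing rests on it, because the arrays had been picked by the outcome.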
